A study of Mus musculus with 8 samples.

Results

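Transcription factors that direct the formation and identity of the cell classes of the retina were followed in whole retinae of wildtype (WT) mice and of mice that lack 4 proteins of the neural extracellular matrix. The set was chosen by name as a list of 50 lineage regulators of photoreceptors, bipolar, horizontal, amacrine and ganglion cells and of eye field and glial cells, and 49 of them were found among the 18058 genes of the deposited table. Ptf1a, a regulator of horizontal and amacrine fate, was not analysed here. The 49 members comprised 11 photoreceptor, 9 bipolar, 4 horizontal, 11 amacrine, 6 ganglion and 8 eye field and glial factors. Each was placed in 1 class, although several are known from more than 1 cell type.

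The study compared adult mice with combined knockout of Bcan, Ncan, Tnc and Tnr (quadruple KO) with adult WT mice of the inbred strain 129S2/SvPasCrl. Bcan and Ncan encode the proteoglycans brevican and neurocan, and Tnc and Tnr encode the glycoproteins tenascin-C and tenascin-R. The quadruple KO line came from crossing single KO lines and carries the 4 disrupted genes in every cell, so that effects on the retina cannot be assigned to 1 cell type or to 1 of the 4 genes. Total RNA of dissected retinae was sequenced from 4 WT libraries (WT A to WT D) and 4 quadruple KO libraries (KO A to KO D). The series' description gives 4 mice of each genotype, while the study's methods say that retinae were pooled before RNA extraction, and neither the retinae per library nor the sex of the mice behind each library was stated.

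Retinal neurons and Müller glia arise from a common pool of progenitors, and combinations of homeodomain, basic helix-loop-helix, nuclear receptor and zinc finger proteins set and then maintain each fate. In photoreceptors, the homeodomain proteins Otx2 and Crx activate the genes of phototransduction together with Nrl and Nr2e3, which favour the rod programme over the cone programme. Many of these regulators stay active in the adult retina, where they maintain the transcript repertoire of the cell class.

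Crx and Otx2 bind short homeodomain motifs of the form TAATCC, which reads GGATTA on the other strand. RefSeq promoter windows (GRCm38.p6, 250 bases before to 50 bases after each start) were found for 42 of the 49 members. The motif was present on either strand in 4 of 61 member promoters (6.56%), those of Crx, Otx2, Thrb and Isl1, and in 7.06% of all 32851 promoters. For Crx, Otx2 and Thrb the window that holds the motif is shown (Otx2 and Thrb each have more than 1 annotated start), because these 3 photoreceptor factors carried the motif and had large differences among the libraries, with the GGATTA matches in capitals. They lie at chr7:15879906-15880205 on the minus strand, chr14:48665060-48665359 on the minus strand and chr14:17660710-17661009 on the plus strand.
Crx: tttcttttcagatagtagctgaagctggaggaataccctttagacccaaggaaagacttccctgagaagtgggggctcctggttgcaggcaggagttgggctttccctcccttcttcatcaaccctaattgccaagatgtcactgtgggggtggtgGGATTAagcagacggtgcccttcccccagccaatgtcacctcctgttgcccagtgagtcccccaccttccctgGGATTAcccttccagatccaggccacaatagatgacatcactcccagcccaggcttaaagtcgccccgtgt
Otx2: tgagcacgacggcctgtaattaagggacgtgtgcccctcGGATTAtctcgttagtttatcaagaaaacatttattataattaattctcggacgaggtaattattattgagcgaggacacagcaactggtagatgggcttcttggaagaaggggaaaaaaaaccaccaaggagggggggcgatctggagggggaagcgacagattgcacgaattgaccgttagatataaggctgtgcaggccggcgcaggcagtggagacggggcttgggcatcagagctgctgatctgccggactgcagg
Thrb: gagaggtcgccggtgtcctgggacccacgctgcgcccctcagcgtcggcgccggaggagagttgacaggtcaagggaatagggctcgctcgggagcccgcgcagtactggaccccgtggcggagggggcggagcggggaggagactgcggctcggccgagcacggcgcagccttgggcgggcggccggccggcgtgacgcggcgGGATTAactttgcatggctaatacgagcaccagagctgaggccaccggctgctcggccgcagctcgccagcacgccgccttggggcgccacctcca
The Crx window held 2 matches, 94 and 21 bases before the start, the Otx2 window 1 match at 211 bases and the Thrb window 1 match at 46 bases. A match of these letters is a description of the window and no evidence of binding. The palindromic homeodomain motif TAATTA was found in 8.2% of member promoters and 5.29% of all promoters, TGCTGA, a site of the Maf and Nrl type read on both strands, in 19.7% and 19.5%, and AGGTCA, a nuclear receptor site read on both strands, in 11.5% and 16.3%.

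The values are normalized counts, that is, estimated read counts per gene that the authors had divided by a size factor for each library. The targeted genes Bcan, Ncan and Tnr were lower in all 4 KO libraries than in any WT library, whereas Tnc had 881 to 1592 normalized counts in WT and 1024 to 1249 in quadruple KO retinae and so did not separate the genotypes at the transcript level. Where in Tnc these reads lie was not analysed here. WT B and WT C stood apart from the other 6 libraries. Signal recognition particle RNA took 19.3% and 14.8% of their normalized counts, against 6.82% to 8.69% elsewhere, and the 13 mitochondrial mRNAs took 0.402% and 0.341%, against 1.28% to 1.64%. The first principal component of all genes, 50.9% of the variance, separated these WT libraries from the rest, and the values of the members the results turn on are therefore also given against WT A and WT D alone. No gene of the 13 marker lists of retinal and neighbouring cell types was called. Lens markers varied widely among the libraries, with summed levels of 34.9 to 2828 normalized counts, and pigment epithelium markers had 2158 to 6485. The part of the RNA composition in the differences below was not tested. In whole tissue, fewer cells of a type and less RNA per cell cannot be told apart.

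None of the 49 transcription factors passed an adjusted p of 0.05 in the comparison of 4 quadruple KO with 4 WT libraries (limma, lowest adjusted p = 0.3), a threshold that 0.437% of the 17636 tested genes passed. At an unadjusted limma p under 0.05, 11 members were higher in the quadruple KO (22.4%, against 9.29% of all genes) and 3 were lower (6.12%, against 7.28%). The higher members were Crx, Nr2e3, Otx2, Neurod1, Mef2c, Sebox, Lhx4, Prox1, Tfap2a, Tfap2b and Six6, and the lower members were Lhx3, Ebf1 and Eomes. This split changed with the variance model. With array weights, 7 members were higher and 7 lower (8.43% and 7.9% of all genes), and without the mean-variance trend 8 and 5 (7.52% and 6.4% of all genes). The number of members under this threshold was 7 or 8 without WT B, WT C, KO A, KO B or KO C, 10 without KO D, 19 without WT A and 21 without WT D, and the share of all genes moved with it, from 16.6% in either direction to 7.75% without WT B and 34.2% without WT D. The shares of 9.29% and 7.28% of all genes are also the background of each count by class or marker list given below. The 4 KO values lay above all 4 WT values in 5 members (10.2%, against 6.16% of all genes) and below them in 2 (4.08%, against 3.58%). The former were Crx, Nr2e3, Otx2, Mef2c and Lhx4, and the latter Rxrg and Ebf1. A two-sided exact permutation test of the means, run on each of the 49 members, gave p = 0.0286 for these 7, the smallest p that 4 against 4 libraries allow. Separate genotypes always give this p, so it restates the separation and adds no further support. Log2 fold changes of the members, given throughout as quadruple KO minus WT on the log2(normalized count + 1) scale, ran from -0.51 to 0.61 with a median of -0.02, and the median of all genes was 0.00.

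The comparison with WT A and WT D alone called no member either (lowest adjusted p = 0.15 with limma, for Rorb). There, 6 members were higher at an unadjusted limma p under 0.05 (5.83% of all genes) and 4 were lower (5.79% of all genes), and the 4 KO values lay above both WT values in 8 members (12.5% of all genes) and below both in 6 (9.7% of all genes). Crx, Nr2e3, Otx2, Mef2c, Lhx4 and Ebf1 passed the unadjusted threshold in both comparisons in the same direction. Nrl was added on the higher side and Rorb, Esrrb and Satb1 on the lower side. The 2 comparisons share the KO libraries, WT A and WT D, so passing both is no replication. WT A and WT D were kept because WT B and WT C stood apart in these same data. Their median absolute log2 difference over all genes was 0.13, against 0.344 to 0.391 from WT B or WT C. Standard errors against this pair can therefore understate the spread among WT libraries. The median size of the log2 fold changes, without regard to sign, was 0.22 over the members against all WT libraries and 0.11 against WT A and WT D.

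**Figure D1:**
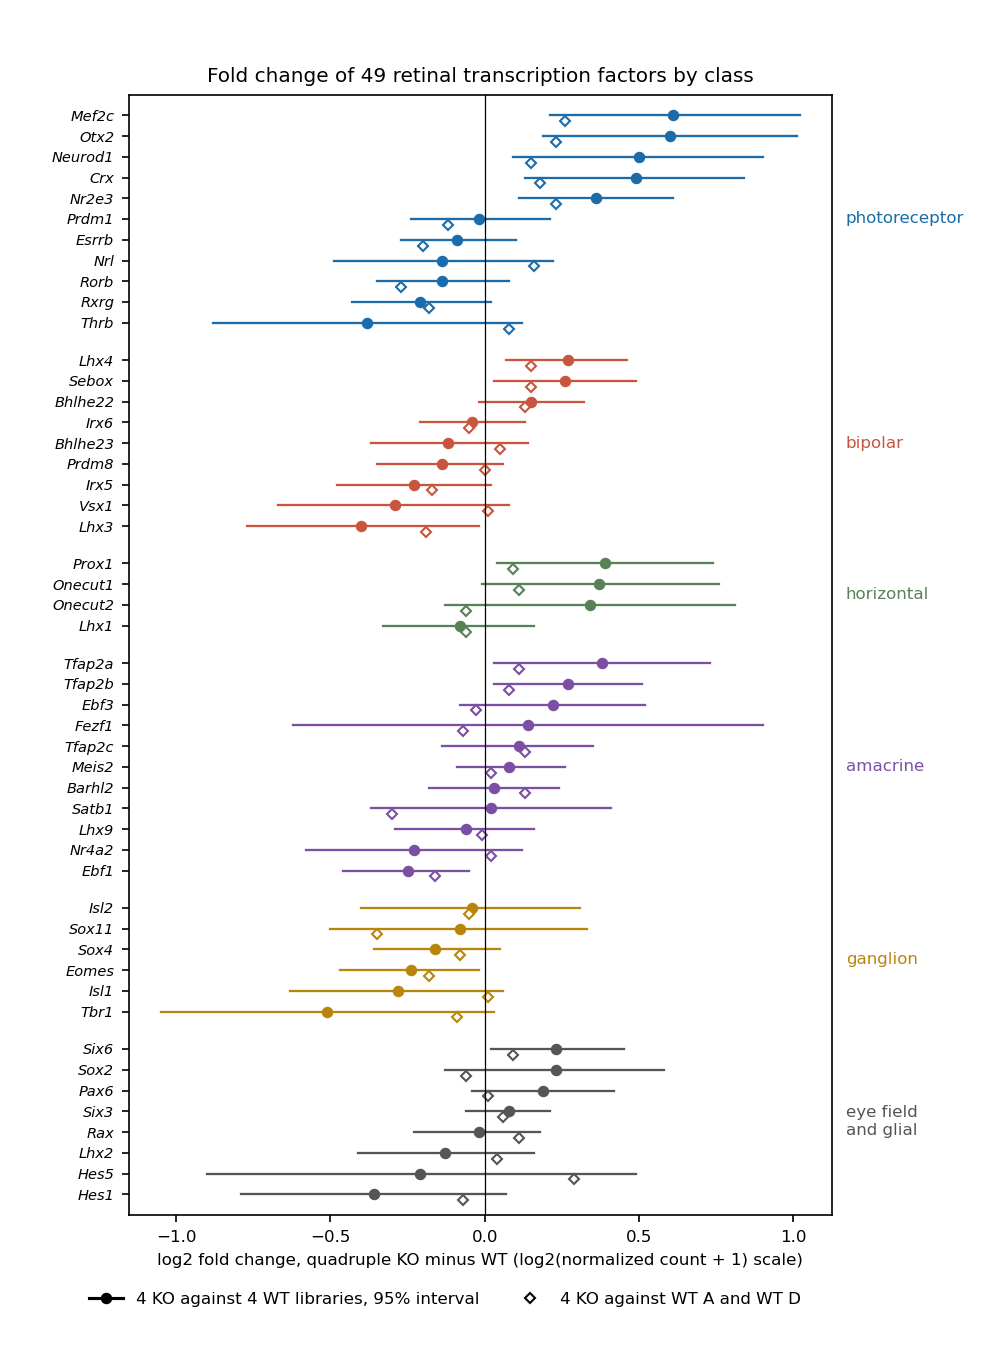
Log2 fold change (x axis, quadruple KO minus WT) of each of the 49 transcription factors (y axis, grouped by class); circles with 95% intervals compare 4 KO with 4 WT libraries, and diamonds compare them with WT A and WT D. Mef2c and Otx2 lie farthest to the right at 0.61 and 0.60, Tbr1 farthest to the left at -0.51, and most diamonds lie nearer to 0 than the circles.

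Among the photoreceptor factors, 5 of 11 (45.5%, against 9.29% of all genes) were higher in the quadruple KO at an unadjusted limma p under 0.05 and none was lower, and the class as a whole was split. Crx, Otx2, Neurod1, Mef2c and Nr2e3 had log2 fold changes of 0.36 to 0.61, whereas the other 6 lay between -0.38 and -0.02, so that the class median was -0.02. Crx (chr7:15599872-15613893, GRCm39), the cone-rod homeobox protein that activates photoreceptor genes, had normalized counts of 24866, 16369, 17250 and 26633 in WT A to WT D and 27903, 28377, 31564 and 28988 in KO A to KO D. All KO values lay above all WT values, and WT B and WT C were the lowest libraries. The means were 21280 ± 5224 in WT and 29208 ± 1632 in quadruple KO retinae (SD, n = 4 per genotype). This corresponded to a log2 fold change of 0.49 (SE 0.16, adjusted p = 0.3 with limma). Against WT A and WT D the log2 fold change of Crx was 0.18 (SE 0.06).

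Otx2 (chr14:48894099-48911276), which acts upstream of Crx in photoreceptor fate and is also expressed in bipolar cells, had 4368, 2672, 2815 and 4761 in WT A to WT D and 5124, 5397, 5629 and 5256 in KO A to KO D. The genotypes did not overlap, and the KO libraries lay closer together than the WT libraries. Its log2 fold change was 0.60 (SE 0.18, adjusted p = 0.3 with limma), and against WT A and WT D it was 0.23 (SE 0.06). Mef2c (chr13:83652064-83815555), a MADS-box factor of rods, followed the same order of WT libraries, with 4897, 2909, 3191 and 5054 in WT A to WT D and 5569, 5620, 6556 and 6115 in KO A to KO D. Again no KO value reached down to a WT value. Its log2 fold change was 0.61 (SE 0.18, adjusted p = 0.3 with limma) and 0.26 (SE 0.07) against WT A and WT D.

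Nr2e3, the nuclear receptor that activates rod genes and represses cone genes, measured 13018, 8980, 11940 and 11728 in WT A to WT D and 14330, 14963, 15302 and 13459 in KO A to KO D. Here WT B was the lowest library while WT C lay between WT A and WT D, and the genotypes were separate. For Nr2e3, the log2 fold change was 0.36 (SE 0.11, adjusted p = 0.3 with limma) and 0.23 (SE 0.06) against WT A and WT D, the smallest shift between the 2 comparisons among the 5 factors with higher values. Neurod1, a basic helix-loop-helix factor of photoreceptor differentiation and survival, had 9463, 6565, 5869 and 10752 in WT A to WT D and 10375, 10472, 12173 and 11718 in KO A to KO D. WT D exceeded KO A and KO B, so the genotypes overlapped. For Neurod1, the log2 fold change was 0.50 (SE 0.18, adjusted p = 0.3 with limma) and 0.15 (SE 0.08) against WT A and WT D. The Neurod1 locus overlaps Cerkl on the same strand in the annotation, and reads shared by both genes could be assigned to either.

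Nrl, the leucine zipper protein that determines rod fate, showed the opposite order among the WT libraries and is given by library for this reason, a choice made after its values were seen. Its normalized counts were 42663, 59780, 71038 and 43479 in WT A to WT D and 47515, 46841, 51010 and 47156 in KO A to KO D, so that WT B and WT C were the highest of the 8 libraries. The log2 fold change was -0.14 (SE 0.16) against all WT libraries and 0.16 (SE 0.05) against WT A and WT D, where all 4 KO values lay above both WT values. Prdm1, which favours photoreceptor over bipolar fate, had 498 to 591 normalized counts in WT and 480.3 to 597 in quadruple KO retinae, with overlapping genotypes. Rorb and Esrrb, nuclear receptors of early photoreceptor differentiation and of rods, had log2 fold changes of -0.14 (SE 0.09) and -0.09 (SE 0.08) against all WT libraries. Against WT A and WT D these were -0.27 (SE 0.06) and -0.20 (SE 0.05), and all KO values lay below both WT values for either gene.

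The cone factors were Thrb, the thyroid hormone receptor that sets the opsin pattern of cones, and Rxrg, its retinoid X receptor partner. Thrb had 2290, 4531, 4006 and 2222 in WT A to WT D and 2392, 2271, 2361 and 2517 in KO A to KO D. WT B and WT C stood above the other 6 libraries, and WT A and WT D lay within or just below the KO range. For Thrb, the log2 fold change was -0.38 (SE 0.22, adjusted p = 0.35 with limma), and against WT A and WT D it was 0.08 (SE 0.05) and thus of the opposite sign. Rxrg had 197, 197, 201 and 185 in WT A to WT D and 159, 160, 183 and 175 in KO A to KO D. Every KO value was below every WT value, by as little as 2 normalized counts between KO C and WT D. For Rxrg, the log2 fold change was -0.21 (SE 0.10, adjusted p = 0.31 with limma) and -0.18 (SE 0.11) against WT A and WT D. The sum of the 5 cone markers was 21972 to 24949 normalized counts in WT and 23127 to 24745 in quadruple KO libraries, and no cone marker passed an unadjusted p of 0.05. The sum of the 5 rod markers was 1459830 to 1564768 in WT A and WT D, 1130419 to 1323809 in WT B and WT C, and 1563684 to 1690280 in the KO libraries, and 2 of 5 rod markers were higher at an unadjusted p under 0.05. The part of these rod transcript levels in the values of the rod factors was not tested.

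**Figure D2:**
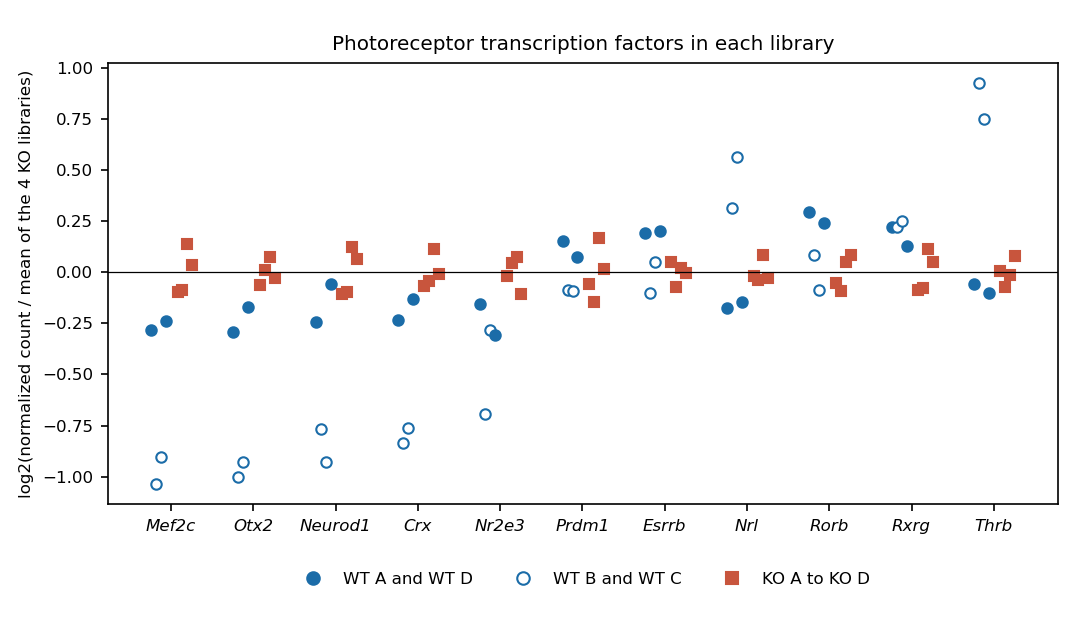
Each library of the 11 photoreceptor factors, as log2 of the normalized count over the mean of the 4 KO libraries (y axis); filled circles are WT A and WT D, open circles WT B and WT C, squares the 4 KO libraries. For Mef2c, Otx2, Neurod1 and Crx the open circles lie farthest below 0, and for Nrl and Thrb they lie farthest above it.

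Of the 9 bipolar factors, 2 were higher and 1 was lower at an unadjusted limma p under 0.05 (22.2% and 11.1%, against 9.29% and 7.28% of all genes), with a class median log2 fold change of -0.12, which was 0.01 against WT A and WT D. Lhx4 (chr1:155573777-155627430), a LIM homeobox factor of cone bipolar cells, had 1483, 1362, 1211 and 1515 in WT A to WT D and 1750, 1701, 1672 and 1559 in KO A to KO D. All KO values were above all WT values. The log2 fold change was 0.27 (SE 0.09, adjusted p = 0.3 with limma) and 0.15 (SE 0.06) against WT A and WT D. Lhx3, the close relative of Lhx4, had 231, 352, 370.1 and 315 in WT A to WT D and 269, 256, 231 and 198 in KO A to KO D. Its genotypes overlapped, since WT A and KO C both had 231. For Lhx3, the log2 fold change was -0.40 (SE 0.17, adjusted p = 0.3 with limma) and -0.19 (SE 0.16) against WT A and WT D, opposite in sign to that of Lhx4. The homeobox gene Sebox had 899, 857, 824 and 1062 in WT A to WT D and 1097, 1129, 1157 and 968 in KO A to KO D. KO A, KO B and KO C lay above every WT library, and KO D lay below WT D. For Sebox, the log2 fold change was 0.26 (SE 0.10, adjusted p = 0.3 with limma) and 0.15 (SE 0.09) against WT A and WT D.

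Vsx1, a homeodomain factor of cone bipolar cells, had 1310, 2076, 1702 and 1157 in WT A to WT D and 1356, 1231, 1231 and 1153 in KO A to KO D. WT B and WT C were the 2 highest libraries, and WT A and WT D lay within the range of the KO libraries. The log2 fold change of -0.29 (SE 0.17) moved to 0.01 (SE 0.08) against WT A and WT D. The remaining bipolar factors all overlapped between the genotypes. Bhlhe22, which acts in OFF cone bipolar and amacrine subtypes, had a log2 fold change of 0.15 (SE 0.07), and Bhlhe23, which acts in rod bipolar maturation, one of -0.12 (SE 0.11). Prdm8, a zinc finger factor of rod bipolar cells, had -0.14 (SE 0.09). Irx5 and Irx6, Iroquois factors of OFF cone bipolar types, had -0.23 (SE 0.11) and -0.04 (SE 0.08). The 7 bipolar markers gave 2 genes that were higher at an unadjusted p under 0.05 and a median log2 fold change of -0.06.

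The 4 horizontal factors had the highest class median, at a log2 fold change of 0.36, which was 0.02 against WT A and WT D. Prox1, which promotes the genesis of horizontal cells and stays active in AII amacrine and bipolar cells, had 8518, 6054, 5570 and 9034 in WT A to WT D and 9729, 9646, 9504 and 8577 in KO A to KO D. WT D exceeded KO D, and WT B and WT C lay well below the other 6 libraries. For Prox1, the log2 fold change was 0.39 (SE 0.15, adjusted p = 0.3 with limma) and 0.09 (SE 0.06) against WT A and WT D. Onecut1, which specifies horizontal cells, had 221, 121, 161 and 181 in WT A to WT D and 216, 217, 226 and 209 in KO A to KO D. Its paralog Onecut2 had 544, 353, 270.2 and 534 in WT A to WT D and 543, 524, 497 and 502 in KO A to KO D. For both Onecut genes WT A lay inside or just above the KO range, and WT B and WT C were the lowest libraries. Their log2 fold changes were 0.37 (SE 0.17) and 0.34 (SE 0.21) against all WT libraries, and 0.11 (SE 0.11) and -0.06 (SE 0.07) against WT A and WT D. Lhx1, which positions horizontal cells, had 178, 207, 173 and 185 in WT A to WT D and 189, 185, 167 and 160.2 in KO A to KO D. The genotypes overlapped broadly, with a log2 fold change of -0.08 (SE 0.11). Of the 5 horizontal markers, 2 were higher and 1 was lower at an unadjusted p under 0.05. Their median log2 fold change was -0.09, opposite in sign to that of the factors, and 0.04 against WT A and WT D. The summed level of these markers was 11430 and 11523 in WT B and WT C against 8706 to 9775 in the other libraries.

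Of the 11 amacrine factors, Tfap2a and Tfap2b were higher and Ebf1 was lower at an unadjusted limma p under 0.05 (18.2% and 9.09%, against 9.29% and 7.28% of all genes), and the class median log2 fold change was 0.08. Tfap2a and Tfap2b encode AP-2 proteins of amacrine and horizontal differentiation. Tfap2a had 1608, 1208, 972 and 1582 in WT A to WT D and 1664, 1859, 1754 and 1600 in KO A to KO D. Tfap2b had 5131, 4213, 3906 and 5461 in WT A to WT D and 5649, 5694, 5506 and 5461 in KO A to KO D. In both genes WT B and WT C were the lowest libraries, and the highest WT value reached the lower end of the KO range. Their log2 fold changes were 0.38 (SE 0.16, adjusted p = 0.3 with limma) and 0.27 (SE 0.11, adjusted p = 0.3 with limma), and against WT A and WT D they were 0.11 (SE 0.07) and 0.08 (SE 0.05). The third AP-2 gene, Tfap2c, had a log2 fold change of 0.11 (SE 0.11).

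Ebf1 (chr11:44508138-44898918), a helix-loop-helix factor found in amacrine and ganglion cell subsets, had 1136, 1168, 1437 and 1146 in WT A to WT D and 971, 1050, 1014 and 1050 in KO A to KO D. The KO libraries were all lower than the WT libraries, and WT C was the highest. The means were 1222 ± 144 in WT and 1021 ± 37.7 in quadruple KO retinae (SD, n = 4 per genotype). This gave a log2 fold change of -0.25 (SE 0.09, adjusted p = 0.3 with limma) and -0.16 (SE 0.06) against WT A and WT D. Its paralog Ebf3 had a log2 fold change of 0.22 (SE 0.13) and overlapped. Nr4a2, an orphan nuclear receptor known from dopaminergic neurons, had 298, 400.5, 449 and 295 in WT A to WT D and 288, 334, 266 and 324 in KO A to KO D. WT B and WT C were the highest libraries, and the log2 fold change moved from -0.23 (SE 0.16) to 0.02 (SE 0.11) when they were left out. Satb1, a chromatin organizer also known from direction-selective ganglion cells, had 0.02 (SE 0.17) against all WT libraries and -0.30 (SE 0.08) against WT A and WT D, whose values of 1979 and 1983 lay above all KO values. The remaining members, Meis2, Lhx9 and Barhl2, factors of amacrine subtypes, had log2 fold changes between -0.06 and 0.08 with overlapping genotypes. Of the 7 amacrine markers, 1 was higher at an unadjusted p under 0.05, and their median log2 fold change was 0.11 and, against WT A and WT D, 0.01. Their summed level was 23947 to 27153 normalized counts in WT B and WT C, 20580 to 21784 in WT A and WT D, and 20710 to 21598 in the KO libraries.

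Starburst amacrine cells, the cholinergic cells that serve the detection of motion direction, express Isl1, Sox2 and Six3, and their ON type in the ganglion cell layer also expresses Fezf1. None of these 4 factors passed an unadjusted limma p of 0.05 against all WT libraries or against WT A and WT D. Isl1 had 1546, 2418, 2342 and 1617 in WT A to WT D and 1699, 1515, 1595 and 1568 in KO A to KO D. Sox2 had 869.9, 669, 532 and 901 in WT A to WT D and 831, 859, 871 and 838 in KO A to KO D. Here WT B and WT C were the highest libraries for Isl1 and the lowest for Sox2, and WT A and WT D lay within or near the KO range for both genes. The log2 fold change was -0.28 (SE 0.15) for Isl1 and 0.23 (SE 0.16) for Sox2, and against WT A and WT D it was 0.01 (SE 0.06) and -0.06 (SE 0.06). Against all WT libraries the 95% intervals were -0.63 to 0.06 for Isl1 and -0.13 to 0.58 for Sox2. Against WT A and WT D they were -0.12 to 0.15 and -0.19 to 0.07, and these can understate the spread among WT libraries.

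Six3 had 2759, 2723, 2601 and 2648 in WT A to WT D and 2740, 2931, 2810 and 2832 in KO A to KO D. Its libraries were the most even of the 4 factors, and the genotypes overlapped. For Six3, the log2 fold change was 0.08 (SE 0.06), and 0.06 (SE 0.05) against WT A and WT D. The antisense gene Six3os1, with a WT mean of 2152 normalized counts, overlaps its locus, and the use of strand in counting was not stated. Fezf1 had 24.4, 16, 21 and 25.2 in WT A to WT D and 13.7, 37.4, 32.5 and 18.5 in KO A to KO D. These few counts ranged more widely within the KO libraries than between the genotypes, and the log2 fold change of 0.14 (SE 0.34) had a 95% interval of -0.62 to 0.90. Isl1 and Sox2 are also expressed in bipolar and ganglion cells and in Müller glia, respectively, so their levels in whole retina are not those of starburst cells alone.

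**Figure D3:**
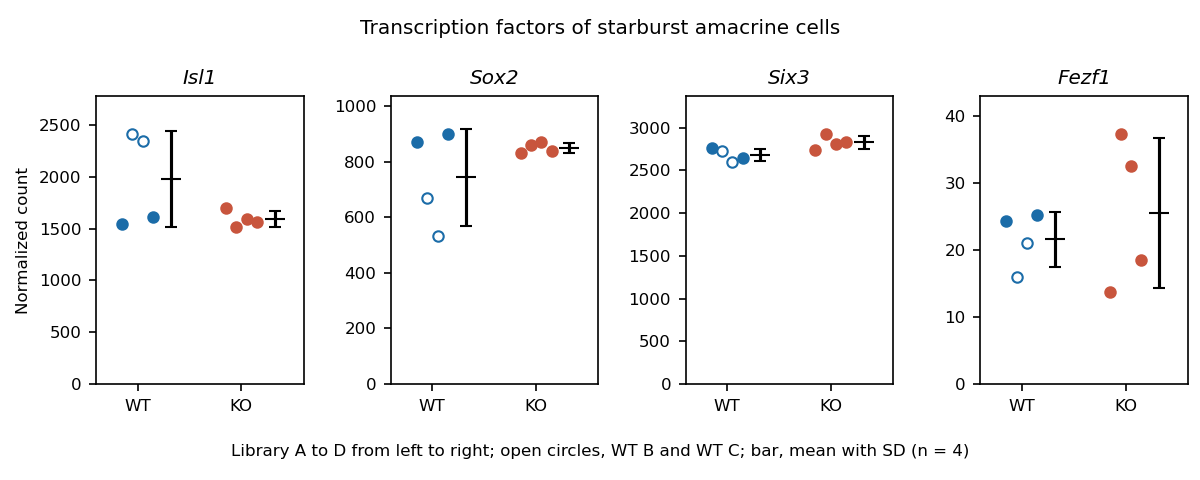
Normalized counts (y axis, from 0) of Isl1, Sox2, Six3 and Fezf1 in the 4 WT and 4 KO libraries, with the mean and SD (n = 4) beside the points. The open circles, WT B and WT C, lie highest for Isl1, whose means are 1981 in WT and 1594 in quadruple KO retinae, and lowest for Sox2, whose means are 743 and 849.7.

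All 6 ganglion cell factors had negative log2 fold changes, from -0.51 to -0.04 with a median of -0.20, and 1 passed an unadjusted limma p under 0.05 (16.7%, against 7.28% of all genes). Against WT A and WT D, 5 of 6 were negative and the median was -0.08. Eomes, which marks intrinsically photosensitive ganglion cells and displaced amacrine cells, had 306, 310.1, 318 and 271 in WT A to WT D and 229, 277, 259 and 255 in KO A to KO D. KO B exceeded WT D, and the remaining KO values were below all WT values. For Eomes, the log2 fold change was -0.24 (SE 0.10, adjusted p = 0.3 with limma) and -0.18 (SE 0.11) against WT A and WT D. Tbr1, its T-box relative in OFF ganglion cell types, had 122, 188, 187 and 87.4 in WT A to WT D and 93, 93.2, 108 and 95.1 in KO A to KO D. WT B and WT C were the highest libraries and WT D was the lowest of all 8. The log2 fold change of Tbr1, -0.51 (SE 0.24, adjusted p = 0.3 with limma), was -0.09 (SE 0.17) against WT A and WT D.

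The SoxC gene Sox11, active in ganglion cell differentiation, had 204, 137, 118 and 164 in WT A to WT D and 125, 162, 163 and 128 in KO A to KO D. Both WT B and WT C were lower than WT A and WT D, and its log2 fold change was -0.08 (SE 0.19) against all WT libraries and -0.35 (SE 0.16) against WT A and WT D. Isl2, a LIM homeobox factor of a ganglion cell subset, had 121, 159.7, 97.9 and 132 in WT A to WT D and 115, 129, 129.7 and 114 in KO A to KO D. The genotypes overlapped, with a log2 fold change of -0.04 (SE 0.16). Sox4, the other SoxC gene, had -0.16 (SE 0.09). Of the 6 ganglion cell markers, 4 were lower at an unadjusted p under 0.05, with a median log2 fold change of -0.25 and of -0.21 against WT A and WT D. Their summed level was 27752 to 30689 normalized counts in the WT and 22849 to 27242 in the KO libraries, without overlap. The part of the marker level in the ganglion factor values was not tested.

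Among the 8 eye field and glial factors, Six6 alone passed an unadjusted limma p under 0.05 (12.5%, against 9.29% of all genes), and the class median log2 fold change was 0.03. Six6, a homeobox factor of the eye field that stays active in amacrine and ganglion cells, had 1566, 1270, 1250 and 1521 in WT A to WT D and 1709, 1610, 1715 and 1535 in KO A to KO D. KO D lay below WT A, and the other KO values lay above all WT values. For Six6, the log2 fold change was 0.23 (SE 0.09, adjusted p = 0.3 with limma) and 0.09 (SE 0.06) against WT A and WT D. Pax6, the paired homeobox factor needed throughout eye formation, had 0.19 (SE 0.10) against all and 0.01 (SE 0.05) against the latter WT libraries. Rax and Lhx2, eye field factors that remain active in Müller glia, had -0.02 (SE 0.09) and -0.13 (SE 0.13).

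Hes1 and Hes5, effectors of Notch signalling in progenitors and Müller glia, had the largest standard errors of this class. Hes1 had 411, 552, 578 and 341 in WT A to WT D and 450.2, 363, 299 and 336 in KO A to KO D. Hes5 had 176, 358, 345 and 176 in WT A to WT D and 332, 219, 189 and 157 in KO A to KO D. WT B and WT C were the highest libraries for both, although KO A also reached 332 normalized counts for Hes5. Their log2 fold changes were -0.36 (SE 0.19) and -0.21 (SE 0.31), and -0.07 (SE 0.16) and 0.29 (SE 0.25) against WT A and WT D. The 6 Müller glia markers had a summed level of 190193 and 196615 normalized counts in WT B and WT C against 137810 to 154066 in the other libraries, and their median log2 fold change was -0.01.

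The spread of the members was larger in WT than in quadruple KO retinae, with a median coefficient of variation of 15.8% and 5.75%, and all genes showed the same order (18.3% and 7.26%). WT B and WT C lay both above WT A and WT D in 17 members and both below in 21, which is 34.7% and 42.9% of the members against 35.1% and 35.8% of all genes. Among photoreceptor factors 7 of 11 were lower and 2 were higher in WT B and WT C, and among horizontal factors 3 of 4 were lower. Bipolar factors gave 4 higher and 2 lower, amacrine factors 4 and 5, ganglion factors 3 and 1, and eye field and glial factors 4 and 3. The widest differences in log2 units were 0.99 for Hes5, 0.92 for Thrb and 0.86 for Tbr1 on the higher side, and -0.80 for Onecut2, -0.73 for Otx2 and -0.71 for Mef2c on the lower side. The 2 pairs of WT libraries thus differed by more than the genotypes did in each of these 6 genes, and no label names a batch.

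**Figure D4:**
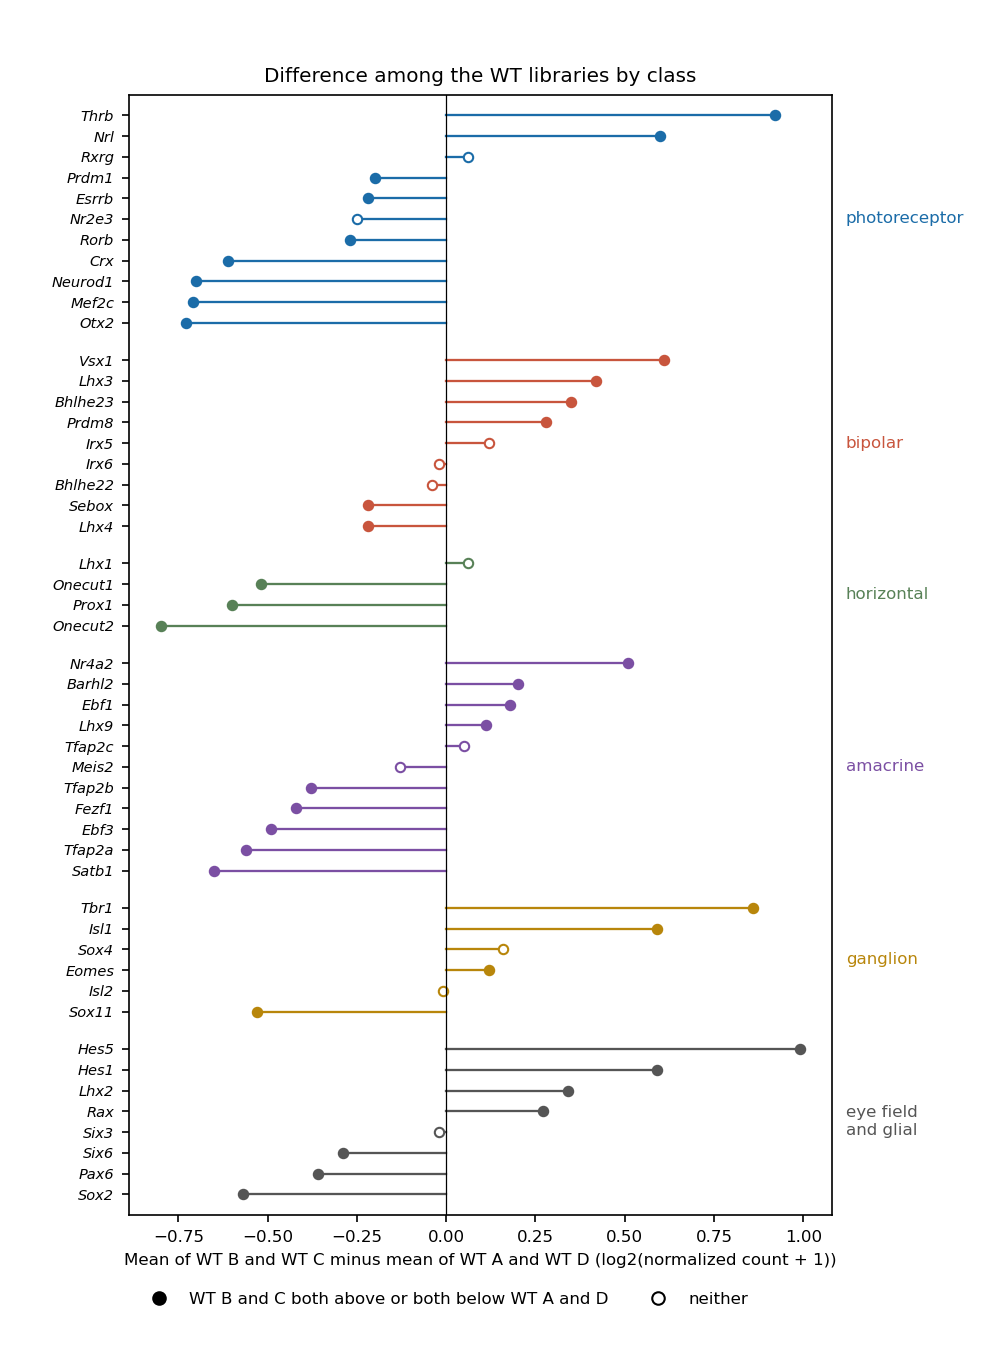
Difference between the mean of WT B and WT C and the mean of WT A and WT D for each member, in log2 units (x axis), grouped by class (y axis); filled circles mark members in which both WT B and WT C lay on the same side of WT A and WT D. Values run from -0.80 (Onecut2) to 0.99 (Hes5), and both directions occur in every class.

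Per kilobase of exonic length, Nrl and Crx were the most abundant members, with 9534 and 6734 normalized counts per kb in WT and 8460 and 9243 in quadruple KO retinae. Their order thus differed between the genotype means, and it was also Crx above Nrl in WT A and WT D (8149 and 7571). Nr2e3, Esrrb, Neurod1 and Rorb followed at 1555 to 4271 normalized counts per kb. Prox1, Tfap2b, Sebox, Otx2 and Rax lay between 548 and 1044. The least abundant were Fezf1 at 8.68 and 10.2, Sox11 at 18.7 and 17.4, Onecut2 at 26.2 and 31.8 and Tbr1 at 26.7 and 17.8 normalized counts per kb in WT and quadruple KO retinae. Rods form most of the cells of the mouse retina, and a level in whole tissue is not a level per cell.

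**Figure D5:**
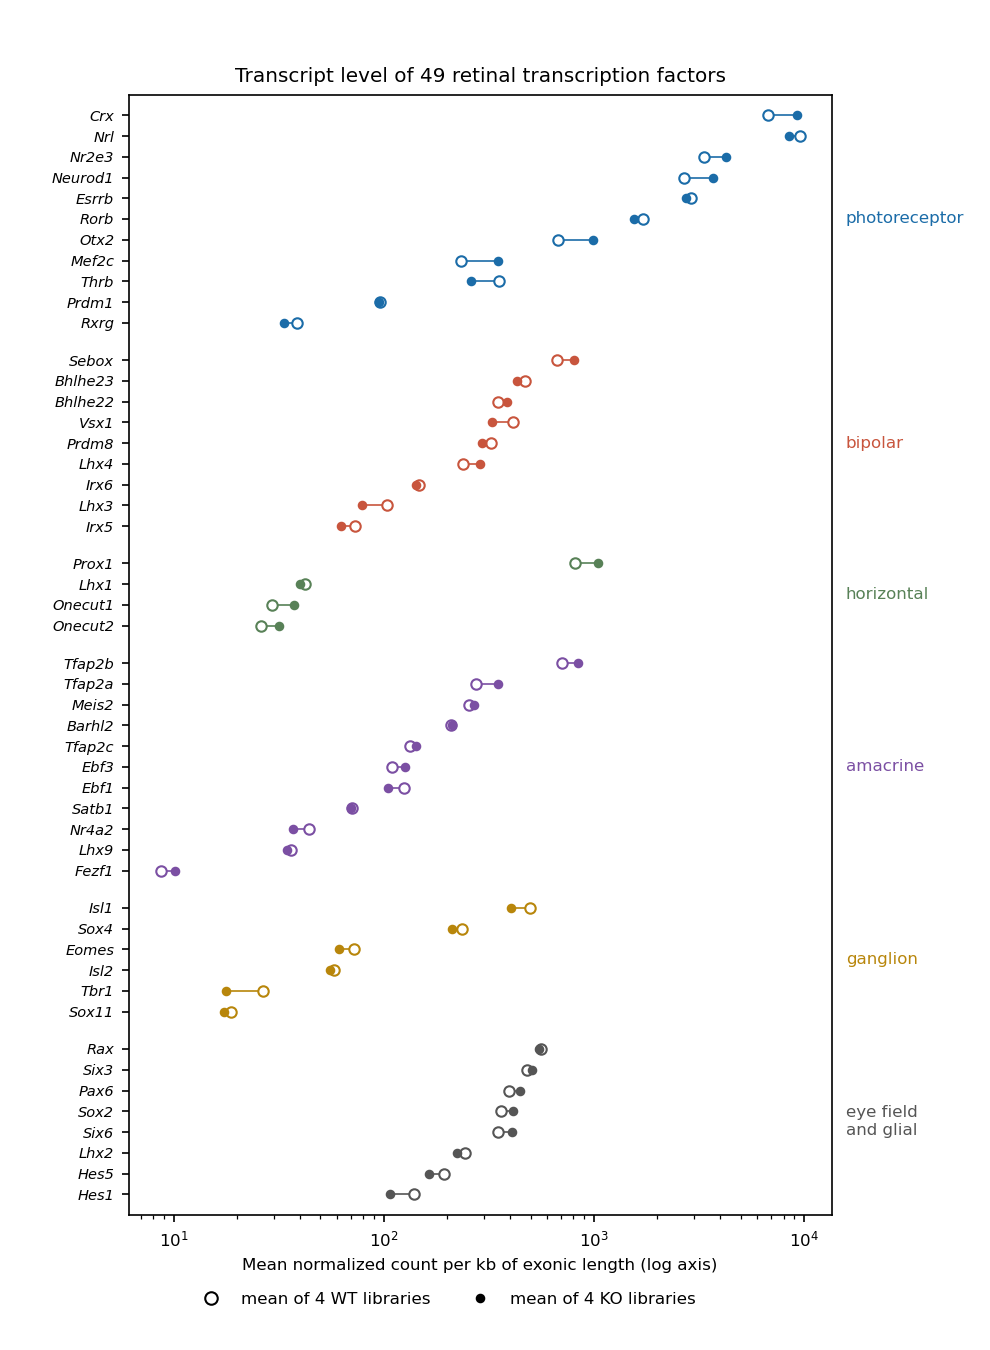
Mean normalized count per kilobase of exonic length (x axis, log scale) of each member by class (y axis); open circles are the mean of 4 WT and filled circles the mean of 4 KO libraries. Photoreceptor factors reach the highest levels (Nrl, 9534 in WT and 8460 in quadruple KO retinae), and Fezf1 has the lowest (8.68 and 10.2).

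A comparison list of other retinal regulators held 37 tested genes, none of which was called. At an unadjusted limma p under 0.05, 5 were higher (13.5%, against 9.29% of all genes) and 2 were lower (5.41%, against 7.28%), and the median log2 fold change was 0.06. The higher ones were Neurod4 (0.47), a helix-loop-helix factor of bipolar and amacrine genesis, Samd7 and Samd11 (0.38 and 0.24), partners in the silencing of non-rod genes in rods, Rora (0.37), a nuclear receptor of cones, and Ldb1 (0.20), a cofactor of LIM homeodomain proteins. The lower ones were Tbx20 (-0.43) and Bcl11b (-0.47). Against WT A and WT D the log2 fold changes of Neurod4 and Samd11 were 0.21 and 0.20, and that of Rora was 0.06.

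In the quadruple KO, chromosomal segments around each targeted gene can stem from the strain in which that allele was made. Within 10 Mb of a targeted gene (distance between gene centres) lay 2 members. These were Lhx4 at 4.0 Mb and Rxrg at 7.9 Mb from Tnr on chromosome 1. The KO values lay above all WT values for Lhx4 and below them for Rxrg, as in 6.16% and 3.58% of all genes. The shares among genes near the targeted genes were not computed. The part of linked strain differences in these values was not tested. Antisense or overlapping genes in the annotation could share reads with several further members. On the opposite strand these include Otx2os1 at Otx2 (385 and 318 normalized counts in WT and quadruple KO means), Elp4 at Pax6 (627 and 792) and 4930447C04Rik at Six6 (705 and 755). On the same strand they include Gm49154 at Otx2 (241 and 327), Gm20649 at Onecut1 (7.39 and 31.0) and Sox2ot at Sox2 (189 and 183). The part of shared reads in the values of these members was not tested.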

How the data were processed

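Total RNA of dissected adult retinae was sequenced from 450 ng per library with a directional total RNA kit in 4 WT and 4 quadruple KO libraries, grouped by sample title. The submitters' processing notes name Trim Galore 0.6.7, STAR 2.7.9a, Salmon 1.5.2, R 4.1.1, DESeq2 1.32.0 and GRCm39, and the use of strand in counting was not given in the sources used here. The deposited table holds the authors' estimated counts per gene after division by DESeq2 size factors, so the values are normalized counts and no count model was run on them. Columns with the authors' own comparison (fold changes and p-values) were not used. One read was worth an estimated 0.708 to 1.77 normalized counts, with 24.7% to 59.7% of the values under 10 on whole steps. Whole reads were therefore not recovered, and depth is otherwise unknown.

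A filter kept 17636 of 18058 genes whose average reached 10 normalized counts, and these were tested on log2(normalized count + 1) with limma 3.58.1 (R 4.3.3), eBayes with a mean-variance trend and Benjamini-Hochberg adjustment over all genes. The script was tested on simulated data whose spread came from the KO libraries alone. The WT libraries varied more (median coefficient of variation over all genes 18.3%, against 7.26%), so that test does not gauge error rates in these data. A fold change on the log2(normalized count + 1) scale understates the change of genes with few counts. The value given after a mean is the SD of 4 libraries and describes their spread. A limma p-value sets a difference against the spread between libraries, which is estimated for each gene together with the trend over all genes. A single member was compared with a two-sided exact permutation test (scipy 1.17.1). Fits with other filters, pseudocounts, scalings, variance models and libraries were run as alternatives. No label says that the replicate letters pair libraries. The correlation of WT and KO deviations from their genotype means was -0.00967, -0.109, 0.098 and 0.0502 for the letters A to D. The split of WT B and WT C from the other WT libraries shapes these correlations, so they cannot decide on a pairing. Exonic lengths and positions came from GENCODE on GRCm39 (17969 genes matched), and promoters from RefSeq on GRCm38.p6, used for their sequence alone.

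The members and lists were chosen with earlier results of these data known. Values of each library are given for 30 members, namely those with an unadjusted p under 0.05, those with separate genotypes, the starburst factors and the 2 extreme log2 fold changes of each class, and for Nrl, which was added after its values were seen. The other members are given by range or fold change. The 13 marker lists covered rods, cones, bipolar, horizontal, amacrine and ganglion cells, Müller glia, pigment epithelium, lens, oligodendrocytes, vessels, microglia and fibroblasts.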

Additional observations from a re-analysis of the deposited data

Results flagged for a closer look

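In each genotype, the 4 libraries of each member were examined for a value far from the other 3, by Dixon's ratio of the gap to the whole range at its 95% critical value for 4 samples. Of 98 groups 7 had such a value, where chance gives about 1 in 20. Nrl had 51010 normalized counts in KO C against 46841 to 47515 in the other KO libraries. Satb1 had 1849 in KO A against 1521 to 1544. Tbr1 had 108 in KO C against 93 to 95.1. Low values were found in KO D for Bhlhe23, with 973 against 1117 to 1133, and for Ebf3, with 1343 against 1478 to 1497. In WT retinae, Ebf1 had 1437 in WT C against 1136 to 1168, and Sox4 had 1325 in WT B against 1053 to 1094.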

How the results depend on the processing

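No member was called under any of the 21 alternatives. An adjusted p of 0.1, which is one of them, was applied only to the comparison of 4 KO with 4 WT libraries. The lowest adjusted p over the fits was 0.077 (limma, without WT D), a value shared after rounding by Crx, Otx2, Neurod1, Mef2c and Tbr1. Further members, among them Sebox (0.078) and Lhx4 (0.079), also lay under 0.1 in that fit. There, 34.2% of all genes had an unadjusted p under 0.05. Of the 31 members given by library, 20 kept the sign of their log2 fold change under every alternative. With WT A and WT D alone, the signs of Nrl (0.16), Thrb (0.08), Vsx1 (0.01), Onecut2 (-0.06), Nr4a2 (0.02), Fezf1 (-0.07), Isl1 (0.01), Sox2 (-0.06) and Hes5 (0.29) turned, and the class medians were 0.15 for photoreceptor, 0.01 for bipolar, 0.02 for horizontal and -0.08 for ganglion factors. With the mitochondrial share as a covariate, Nrl (0.14), Thrb (0.04), Onecut2 (-0.04), Nr4a2 (0.00), Fezf1 (-0.05), Sox2 (-0.05) and Hes5 (0.26) turned, and the medians were 0.14 for photoreceptor, 0.04 for horizontal and 0.00 for amacrine factors. With array weights, Nrl (0.12), Onecut2 (-0.01), Sox2 (0.00) and Hes5 (0.22) turned, and the medians were 0.12 for photoreceptor, 0.00 for bipolar and 0.04 for horizontal factors.

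Leaving out 1 library at a time gave 7 to 21 members with an unadjusted p under 0.05, 4 to 12 of the other retinal regulators (11 without WT A, 4 without WT B, 12 without WT D), and log2 fold changes of -0.24 to 0.00 for Nrl (0.00 without WT C), -0.07 to 0.39 for Fezf1, -0.16 to 0.07 for Isl2 and -0.21 to 0.06 for Sox11. Members with separate genotypes then numbered 7 to 15 (15 without WT A, 13 without WT D, 14 without KO D), and 14 with WT A and WT D alone, where fewer libraries make separation easier by construction. Treating the letters A to D as a replicate block left 0 members called and 10 with an unadjusted p under 0.05. The labels do not say whether libraries of the same letter belong together, so whether the design is paired is unknown. The standard errors of the members ran from 0.06 (Six3) to 0.34 (Fezf1) in log2 units. A difference smaller than its own standard error cannot be told from the spread between libraries, and a larger one is not thereby set apart from it. Otx2, at 0.60 with an SE of 0.18, had an adjusted p of 0.3 with limma.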
